A study of Homo sapiens with 6 samples.

Results

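The genes described here are 54 genes of mitosis and of the G2 phase that precedes it, chosen by name as a module of the cell division programme, with earlier results of these data known. All 54 were found among the 52992 genes with a matched transcript, and 53 of them were among the 18514 genes that passed the filter on low counts. The exception was GAS2L3, which encodes a linker of actin and microtubules in dividing cells. Its 6 libraries held between 0 and 7 estimated counts. RNA-seq was performed on NB4 cells, an established human line of acute promyelocytic leukemia, that stably expressed Cas9 and carried a doxycycline-inducible guide RNA. The control group, LacZ, labelled WT, carried a guide to the bacterial (Escherichia coli) lacZ gene. The groups sg1 and sg5, both labelled ARID1A-deficient, carried different guides to ARID1A, a subunit of the BAF form of the SWI/SNF chromatin remodeling complexes. Cells of all 3 groups carried Cas9 and received doxycycline at 1 μg/ml for 7 days, so each guide was compared with cells given the same agents. Per the study's methods, transduced cells were sorted as populations by their reporters, and RNA was taken after 2 more days without doxycycline. Uncut cells can remain in such populations. There were 2 libraries in each group, all of 1 cell line, and nothing states that replicates came from separate cultures, so p-values measure only the spread between these samples.

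Cells that have copied their DNA enter mitosis when cyclin B bound to CDK1 becomes active, and Aurora and Polo-like kinases then build the spindle. Kinetochores attach chromosomes to microtubules, and the spindle checkpoint holds back the ubiquitin ligase APC/C with its activator CDC20 until all are attached. Most of these genes are transcribed in late S phase and G2 through CCAAT boxes, bound by NF-Y, and through a nearby element called CHR, bound by MuvB complexes with B-MYB and FOXM1 in dividing cells and with the DREAM repressor in resting cells.

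Promoters of these genes are shown because the letters of both elements occur in many of them, together in 51.7%. Those printed are examples, and most of them hold CHR letters near the start. RefSeq promoters (GRCh38.p14, each 300 bases long, from 250 bases before the start to 50 from it on) were matched for 45 of the 54 genes, giving 58 promoters. ANP32E, AURKA, BIRC5, CDCA2, HMGB2, PIMREG, TPX2, TTK and UBE2C had no entry in that table. The last 100 bases before the start are printed 5′ to 3′ on the strand of the gene, in lower case, with capitals for the CCAAT box and for each form of the CHR, TTTGAA and its variant TTCGAA, on either strand. On the opposite strand a CCAAT box reads as ATTGG, and TTTGAA reads as TTCAAA. Position -1 is the base before the start. The first 3 lines are of genes of mitotic entry, CCNB2 (chr15:59105046-59105145, plus strand), CKS1B (chr1:154974581-154974680, plus strand) and CKS2 (chr9:89311095-89311194, plus strand). The next 4 are of the motor KIF11 (chr10:92593030-92593129, plus strand), the spindle gene HMMR (chr5:163460532-163460631, plus strand), the proliferation antigen MKI67 (chr10:128126424-128126523, minus strand) and the spindle gene PSRC1 (chr1:109283146-109283245, minus strand). The last 3 are of genes whose CHR letters lay elsewhere or were not found in these bases: CDC20 (chr1:43358881-43358980, plus strand), TOP2A (chr17:40417897-40417996, minus strand) and TUBB4B (chr9:137241187-137241286, plus strand).
CCNB2: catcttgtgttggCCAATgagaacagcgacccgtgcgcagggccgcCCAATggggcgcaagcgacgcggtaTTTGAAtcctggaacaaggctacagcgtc
CKS1B: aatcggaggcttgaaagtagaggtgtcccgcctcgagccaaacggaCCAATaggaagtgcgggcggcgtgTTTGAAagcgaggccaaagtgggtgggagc
CKS2: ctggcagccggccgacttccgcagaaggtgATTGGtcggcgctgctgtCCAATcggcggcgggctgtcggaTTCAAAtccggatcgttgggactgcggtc
KIF11: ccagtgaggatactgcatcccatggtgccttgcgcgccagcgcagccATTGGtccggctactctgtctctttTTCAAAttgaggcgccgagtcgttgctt
HMMR: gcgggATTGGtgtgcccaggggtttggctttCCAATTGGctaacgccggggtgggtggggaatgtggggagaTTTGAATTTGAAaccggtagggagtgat
MKI67: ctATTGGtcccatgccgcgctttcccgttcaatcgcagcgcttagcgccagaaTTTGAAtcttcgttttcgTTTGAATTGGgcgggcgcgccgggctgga
PSRC1: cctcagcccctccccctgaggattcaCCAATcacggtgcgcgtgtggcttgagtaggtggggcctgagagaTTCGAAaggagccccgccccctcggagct
CDC20: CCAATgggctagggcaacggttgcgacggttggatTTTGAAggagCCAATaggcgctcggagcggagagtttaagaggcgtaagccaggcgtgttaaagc
TOP2A: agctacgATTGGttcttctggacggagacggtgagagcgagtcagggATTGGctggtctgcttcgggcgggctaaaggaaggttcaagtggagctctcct
TUBB4B: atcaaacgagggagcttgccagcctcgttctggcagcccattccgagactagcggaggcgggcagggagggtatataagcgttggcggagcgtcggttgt

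In CCNB2, CKS2 and PSRC1 the CHR letters began at position -29, in CKS1B at -30 and in KIF11 at -28, each downstream of a CCAAT box. HMMR held 2 adjoining copies of TTTGAA and a forward CCAAT box that overlaps an inverted one, and in MKI67 the copy nearest to the start shared its last base with an inverted CCAAT box. In CDC20 the CHR letters began at -65, upstream of the nearer CCAAT box. TOP2A had 2 CCAAT boxes and TUBB4B neither element in these 100 bases. Over the full 300 bases, CCAAT was found in 65.5% of the 58 member promoters and in 34.6% of all 35116 promoters, and TTTGAA or TTCGAA in 65.5% and 16.4%. Both kinds together were in 51.7% of the member promoters and 6.38% of all. A CHR form that began 40 to 10 bases before the start, a window set after the positions were seen, was present in 15 of 58 member promoters (25.9%) and in 615 of all (1.75%). The promoters of other mitosis genes lay nearer to those of the members, since of 91 such promoters 62.6% held CCAAT, 49.5% TTTGAA or TTCGAA, 35.2% both kinds and 16.5% a CHR form in that window. The 15 member genes were ANLN, CCNB2, CDC25C, CDCA8, CDK1, CENPA, CKAP2L, CKS1B, CKS2, GTSE1, HMMR, KIF11, MKI67, PSRC1 and RANGAP1. The E2F forms TTTGGCG and TTTCGCG were rarer, in 6.90% and 3.45% of member promoters against 1.92% and 1.32% of all. GGGCGG, the core of the GC box, was in 74.1% against 44.95%. These matches describe letters in the reference and are not measured binding sites.

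The libraries held between 46131178 and 54843745 estimated counts. MPO, a defining granule gene of promyelocytes, was high in all 6 samples, and PRTN3, AZU1, CTSG and CD33 were detected in each, whereas ELANE had at most 9 counts in any library. Of the 16 markers of other blood, stromal and epithelial cells, PECAM1 had no matched transcript and was not read. HBB, HBA1 and HBA2 had no count, and CD3D, CD79A and EPCAM had at least 233 in every sample. The granule genes AZU1 (log2 fold changes -0.28 ± 0.11 in sg1 and -0.43 ± 0.11 in sg5) and CTSG (-0.50 ± 0.14 and -0.54 ± 0.14) were lower, and the B cell gene CD79A (0.93 ± 0.20 and 0.80 ± 0.20) higher, in all 4 ARID1A-guide samples than in both LacZ samples. CD33 (-0.17 ± 0.11 and -0.18 ± 0.11) was also lower, and CD3D (0.37 ± 0.19 and 0.39 ± 0.19) higher, in all 4. MPO (-0.08 ± 0.14 and -0.18 ± 0.14) and PRTN3 (-0.06 ± 0.32 and -0.36 ± 0.32) did not separate from LacZ in this way. In sg1 replicate 1 PRTN3 was above both LacZ samples. edgeR called none of the 5 promyelocyte and 7 other markers tested. DESeq2 called CD79A in both guides, and AZU1 and CTSG in sg5. Summed over the tested markers, those of promyelocytes held 15669 to 17709 CPM (estimated counts scaled to the library total with TMM factors) in LacZ, 15148 to 16311 in sg1 and 14024 to 15253 in sg5, and those of other cells 22.8 to 25.6, 31.4 to 31.7 and 30.2 to 30.7 CPM. Their part in the module's values was not tested. ARID1A mRNA was 155 and 191 CPM in LacZ, 211 (replicate 1) and 191 (replicate 2) in sg1, and 124 (replicate 1) and 145 (replicate 2) in sg5. Its fitted log2 fold changes were 0.22 ± 0.14 for sg1 and -0.36 ± 0.14 for sg5 (estimate ± SE, edgeR adjusted p = 0.993 and 0.661). A summed transcript level does not show indels, so it does not check the ARID1A-deficient label. Samples labelled as one group stood apart over all genes. On the first principal component, which held 34.4% of the variance, sg1 replicate 1 (34.3) and sg5 replicate 2 (46.8) lay on one side, and sg1 replicate 2 (-15.0), sg5 replicate 1 (-11.3) and the LacZ samples (-24.4 and -30.3) on the other. No label gives this division. Values of sg1 replicate 1 and sg5 replicate 2 are therefore given apart from those of sg1 replicate 2 and sg5 replicate 1, without a test between them.

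The module was expressed over a wide range of levels. Per unit of transcript length, the highest mean levels over the 6 samples were those of HMGB2 (445 TPM), CKS2 (441 TPM), TUBB4B (294 TPM) and CKS1B (217 TPM), and the lowest among the 53 genes tested were those of CKAP2L (5.12 TPM) and UBE2C (1.94 TPM). UBE2C, the ubiquitin-conjugating enzyme of APC/C, is listed with only 53 to 85 counts in a library, and 7 of its 8 annotated transcripts were in the table. ANP32E, a histone chaperone, had 7 of 10 transcripts in the table and 384 to 645 counts, so the levels of both genes may be incomplete. The same limit holds for CTCF (3 of 17 transcripts), KIF23 (13 of 15) and TACC3 (11 of 13), and some other members also lacked an annotated transcript. Summed over the module, the share of a library's counts was 0.647% and 0.648% in the LacZ samples. It was 0.767% in sg1 replicate 1 and 0.817% in sg5 replicate 2, and 0.660% in sg1 replicate 2 and 0.647% in sg5 replicate 1. The module thus took a larger share in 1 sample of each guide than in both controls, and nearly the control share in the other. More cells in G2 or mitosis and more RNA of these genes per cell cannot be told apart in bulk samples.

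No member passed the test at a false discovery rate of 0.1 in sg1 against LacZ, in sg5 against LacZ, in both guides joined against LacZ or in sg1 against sg5 (edgeR's quasi-likelihood test, Benjamini-Hochberg adjustment over 18514 genes). Over all genes, 0.0378%, 0.0972%, 0.167% and 0.0054% were called in these comparisons. DESeq2 also called 0 members in each (background 0.501%, 1.14%, 1.46% and 0.0152%). Without a filter on low counts, edgeR called TUBB4B in sg1 (background 1.05%), and NUSAP1 and TUBB4B both in sg5 (1.92%) and in the guides joined (2.13%). Without sg1 replicate 1 and sg5 replicate 2 it called CKAP2L in sg1 (background 2.2%) and in the guides joined (4.2%), and no other member, so that 1 of 53 was no larger a share than among all genes. CKAP2L was lower there, at -0.84 in sg1 replicate 2 and -0.46 in sg5 replicate 1 from the LacZ mean on the log2 scale. At an unadjusted p under 0.05, edgeR gave 0 members higher in sg1 (background 1.86%), 2 higher in sg5 (2.95%) and 2 higher in both guides joined (2.89%), and 0 lower in each (2.3%, 4.52% and 4.32%). These counts rested on single libraries. Without sg5 replicate 1 they were 25 higher in sg5 (background 7.24%) and 19 in the guides joined (6.12%), without sg1 replicate 2 they were 12 in the guides joined (5.17%), and without sg5 replicate 2 they were 0 in both (1.92% and 2.28%). Leaving out either LacZ sample also gave 0 in both, leaving out sg1 replicate 1 gave 0 in the guides joined, and in sg1 the count was at most 4 with 1 library left out. DESeq2 gave 0, 4 and 5 higher (0.985%, 1.81% and 1.77%) and 0 lower in each (1.06%, 2.03% and 1.9%). Between sg1 and sg5, 0 members reached that p in either direction (0.972% higher and 0.411% lower in edgeR, 0.382% and 0.179% in DESeq2). With all 6 libraries the 2 genes in edgeR were CKAP2, a microtubule-associated protein of the spindle, and KIF20B, a kinesin of the cytokinetic bridge, and both were the 2 of the sg5 and of the joined comparison. Adjusted p-values of the members ranged from 0.993 to 0.998 for sg1 and from 0.659 to 0.983 for sg5.

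Although no gene passed alone, the fitted fold changes were mostly above 0. In sg1 50 of 53 members had a log2 fold change above 0, beside 50.3% of all genes, with a median of 0.14 against 0.00 over all genes. In sg5 50 of 53 did, beside 48.6%, with a median of 0.22 against -0.01. With both guides joined it was 48 of 53, beside 48.7%, with a median of 0.17. These comparisons share the LacZ samples. Directly between the guides, 10 of 53 members were higher in sg1 than in sg5, beside 49.5% of all genes, and the median difference was -0.06. Without sg5 replicate 2 the median for sg5 was 0.01, and without sg1 replicate 1 the median for sg1 was 0.03, so 1 library decided each value. With the guides joined it was 0.079 without sg5 replicate 2 and 0.26 without sg5 replicate 1. The direction between the guides also turned on 1 library. Without sg5 replicate 2, 46 of 53 members were higher in sg1 (52.1% of all genes) with a median of 0.16, and without sg1 replicate 2, 35 of 53 were (47.6%) with a median of 0.03.

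**Figure D1:**
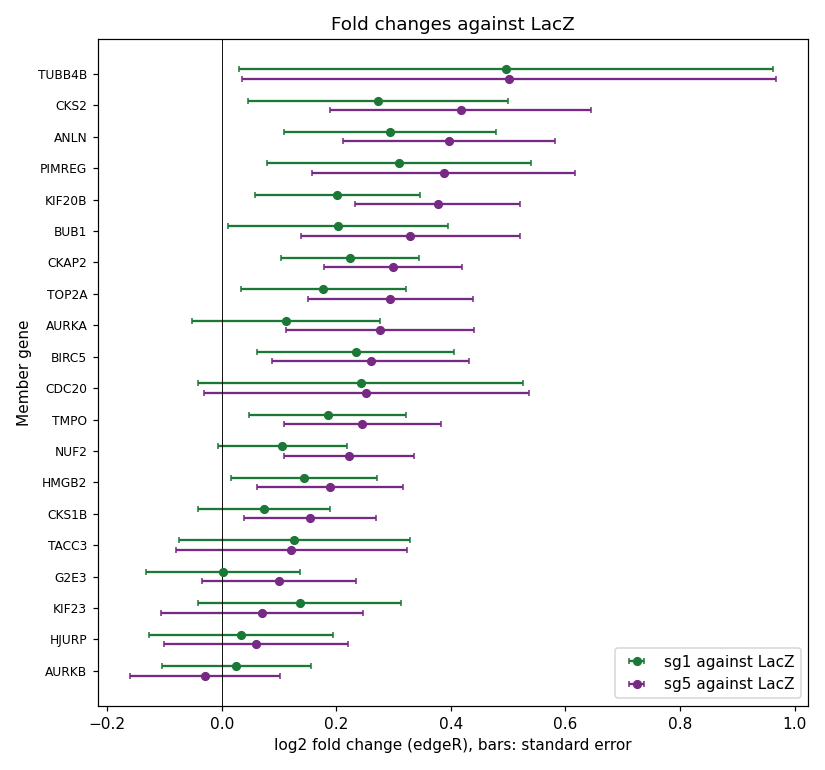
The horizontal axis gives the log2 fold change against LacZ from edgeR, for sg1 (green) and sg5 (purple), with bars of 1 standard error, and the vertical axis lists the 20 members named by rule. Most points lie right of 0, TUBB4B has the widest bars (0.50 ± 0.47 in sg1), and none of the 20 passed an adjusted p of 0.1.

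Read by sample, the excess was seen in sg1 replicate 1 and sg5 replicate 2. Of the 53 members, 43 were above both LacZ samples in sg1 replicate 1 (37.0% of all genes were), and 49 were in sg5 replicate 2 (37.4%). Below both were 3 (41.6%) and 2 (42.6%). In sg1 replicate 2, 24 were above (35.1%) and 14 below (31.6%), and in sg5 replicate 1, 23 were above (36.7%) and 19 below (36.8%). Members at least 0.2 above the LacZ mean on the log2 scale numbered 33 in sg1 replicate 1 (25.3% of all genes), 44 in sg5 replicate 2 (26.9%), and 3 each in sg1 replicate 2 (19.7%) and sg5 replicate 1 (20.6%). The median member differed from the LacZ mean by 0.25 in sg1 replicate 1, 0.04 in sg1 replicate 2, 0.01 in sg5 replicate 1 and 0.36 in sg5 replicate 2. Both samples sg1 replicate 1 and sg5 replicate 2 exceeded each of the other 4 samples in 39 of 53 members, beside 18.6% of all genes. Both sg1 samples were above both LacZ samples in 20 members (16.7% of all genes) and below in 1 (17.4%), and both sg5 samples were above in 22 (20.2%) and below in 2 (21.9%). A smaller number, 14 of 53, was higher in all 4 ARID1A-guide samples than in both LacZ samples, beside 9.72% of all genes. These were ANLN, CDCA2, CDK1, CKAP2, CKAP5, DLGAP5, HMGB2, KIF11, KIF20B, KIF2C, LBR, NUF2, NUSAP1 and TOP2A. Some margins were very small. In sg5 replicate 1 against LacZ replicate 1, CDK1 had 119.7 and 119.5 CPM, and DLGAP5 54.2 and 53.9 CPM. No member was lower in all 4 than in both LacZ samples (10.4% of all genes).

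**Figure D2:**
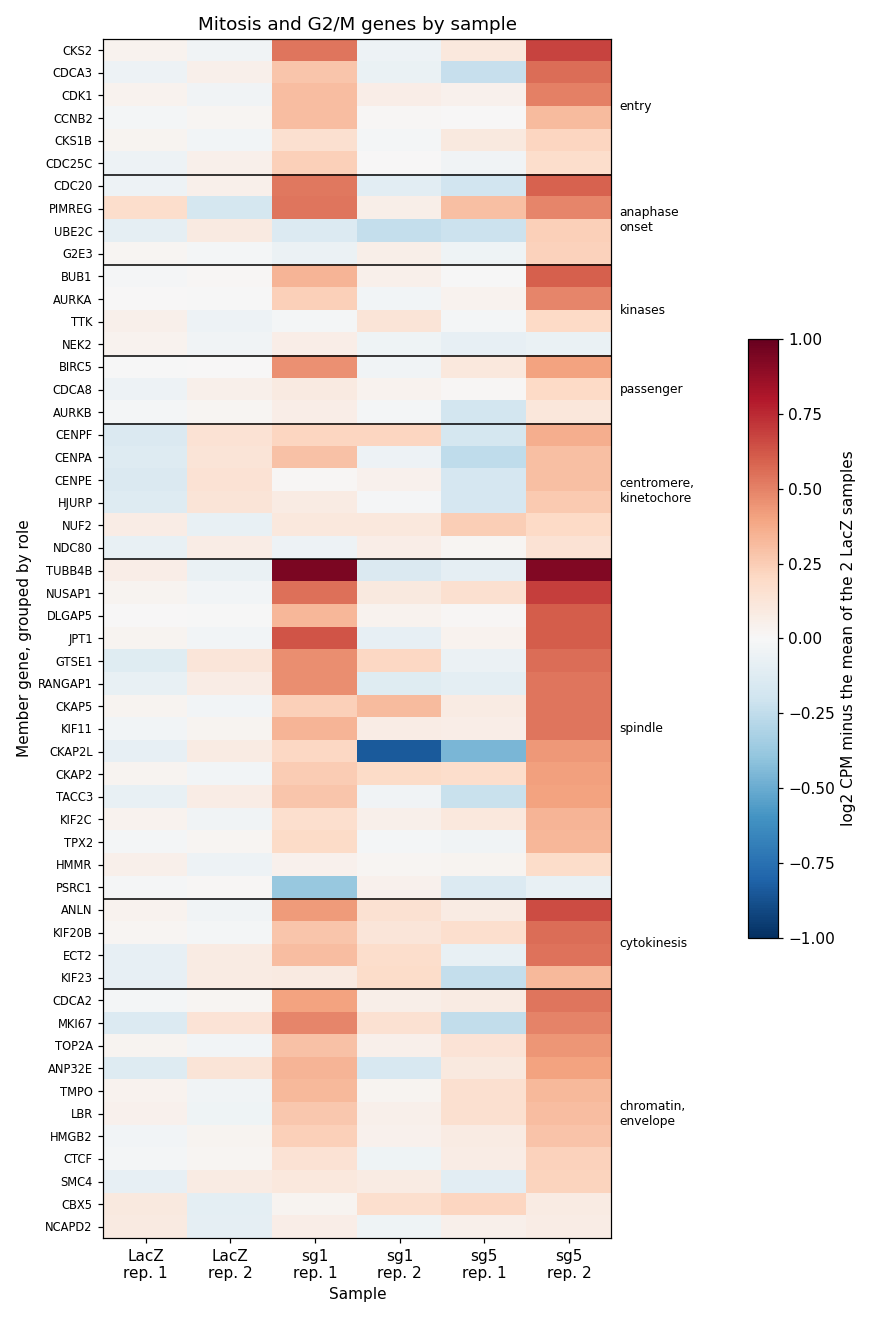
Each row is 1 of the 53 tested members, grouped by role, each column is 1 sample, and colour gives log2 CPM minus the mean of the 2 LacZ samples, from -1 (blue) to 1 (red). Red fills most of the columns of sg1 replicate 1 and sg5 replicate 2, where 43 and 49 members exceeded both LacZ samples, and the columns of sg1 replicate 2 and sg5 replicate 1 are close to those of LacZ.

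Among the genes of mitotic entry, CKS2, a small subunit bound to CDK1, had 137 and 131 CPM in LacZ, 194 (replicate 1) and 129 (replicate 2) in sg1, and 143 (replicate 1) and 213 (replicate 2) in sg5. Only sg1 replicate 1 and sg5 replicate 2 were clearly above the controls, and the log2 fold changes were 0.27 ± 0.23 in sg1 (edgeR adjusted p = 0.993) and 0.42 ± 0.23 in sg5 (adjusted p = 0.699). Its paralog CKS1B, which also guides the ligase SCF to p27, had 103 and 99.02 CPM (LacZ), 113 and 99.7 CPM (sg1), and 108 and 117 CPM (sg5). The range of CKS1B over all samples was narrow, and its fold changes were 0.07 ± 0.12 and 0.15 ± 0.12. CDK1 itself, a member outside the naming rule whose values were read after they were seen, had 119.5 and 114 CPM (LacZ), 144 and 122 CPM (sg1), and 119.7 and 165 CPM (sg5). All 4 samples with an ARID1A guide were above both controls, by more in sg1 replicate 1 and sg5 replicate 2, while sg5 replicate 1 was nearly level with LacZ replicate 1. CCNB2, a B-type cyclin, had 101 and 104 CPM (LacZ), 127 and 103 CPM (sg1), and 103 and 128 CPM (sg5), so its samples split by replicate within each guide and not by guide. CDC25C, the phosphatase that activates CDK1, ran from 9.07 to 11.1 CPM. It overlaps FAM53C on the other strand. CDCA3, an adaptor in the destruction of the CDK1 inhibitor WEE1, had 37.9 and 40.9 CPM (LacZ), 47.6 and 37.6 CPM (sg1), and 33.5 and 58.1 CPM (sg5), with sg5 replicate 1 below and sg5 replicate 2 above every other sample.

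In the group of anaphase onset, CDC20, the activator of APC/C, had 124 and 133 CPM in LacZ, 185 (replicate 1) and 119 (replicate 2) in sg1, and 113 (replicate 1) and 194 (replicate 2) in sg5. The difference between replicates was 1.55-fold in sg1 and 1.72-fold in sg5, while replicate 2 of sg1 and replicate 1 of sg5 lay below both controls. Its log2 fold changes were therefore 0.24 ± 0.28 and 0.25 ± 0.28, each smaller than its SE. PIMREG, a regulator of the metaphase-to-anaphase transition, was low, at 6.55 and 5.14 CPM (LacZ), 8.42 and 6.05 CPM (sg1), and 7.14 and 8.15 CPM (sg5). Here the 2 controls already differed by more than the other members did, and fold changes were 0.31 ± 0.23 and 0.39 ± 0.23. G2E3, a ubiquitin ligase most abundant in G2, had 32.7 and 31.9 CPM (LacZ), 30.99 and 33.7 CPM (sg1), and 31.3 and 37.9 CPM (sg5), and 0.00 ± 0.13 and 0.10 ± 0.13 as its fold changes. In G2E3 sg5 replicate 2 was the highest sample, and the other 5 lay between 30.99 and 33.7 CPM.

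Of the kinases, AURKA, which matures centrosomes, had 121 and 119.7 CPM (LacZ), 142 and 118 CPM (sg1), and 123 and 168 CPM (sg5). Aurora A mRNA was above both controls in 3 of the 4 ARID1A-guide samples, by most in sg5 replicate 2, with fold changes of 0.11 ± 0.16 and 0.28 ± 0.16. BUB1, a checkpoint kinase at the kinetochore, had 99.4 and 101 CPM (LacZ), 127 and 104 CPM (sg1), and 99.9 and 152 CPM (sg5), with fold changes of 0.20 ± 0.19 and 0.33 ± 0.19. TTK (MPS1), which starts the checkpoint signal, and NEK2, a centrosome kinase, varied less than AURKA and BUB1. NEK2 had 30.6 and 29.1 CPM (LacZ), 31.3 and 28.98 CPM (sg1), and 28.2 and 28.6 CPM (sg5), so both sg5 samples lay just below the other 4, while sg1 and LacZ overlapped.

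The chromosomal passenger complex corrects faulty attachments of chromosomes to the spindle. AURKB, its kinase, had 48.5 and 50.1 CPM in LacZ, 51.6 (replicate 1) and 48.7 (replicate 2) in sg1, and 43.3 (replicate 1) and 53.3 (replicate 2) in sg5. The groups overlapped, and the log2 fold changes were 0.03 ± 0.13 and -0.03 ± 0.13. BIRC5 (survivin), which brings the complex to centromeres, had 91.3 and 91.5 CPM (LacZ), 126 and 89.3 CPM (sg1), and 98.3 and 121 CPM (sg5), with fold changes of 0.23 ± 0.17 and 0.26 ± 0.17. CDCA8 (borealin) ran from 95.1 to 113 CPM. Within one complex, BIRC5 was thus about level with the controls in sg1 replicate 2 and above them in the remaining ARID1A-guide samples, whereas AURKB lay on both sides of them.

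Centromere and kinetochore genes showed a spread between the LacZ samples as well. CENPF, a large outer kinetochore protein, had 160.3 and 196 CPM (LacZ), 206 and 205 CPM (sg1), and 157 and 228 CPM (sg5), a difference of -0.29 between the controls on the log2 scale that was the widest downward gap of any member. HJURP, the chaperone that places the centromeric histone CENPA, had 51.05 and 60.9 CPM (LacZ), 59.2 and 55.4 CPM (sg1), and 49.8 and 66.97 CPM (sg5), and its fold changes of 0.03 ± 0.16 and 0.06 ± 0.16 were within 1 SE. NUF2 and NDC80 are subunits of the complex that holds microtubule ends. NUF2 had 47.97 and 43.1 CPM (LacZ), 48.96 and 49.03 CPM (sg1), and 53.9 and 52.3 CPM (sg5), and both guides lay above both controls by a small margin, with fold changes of 0.11 ± 0.11 (adjusted p = 0.993) and 0.22 ± 0.11 (adjusted p = 0.69). NUF2 was 1 of 2 members for which sg5 replicate 2 was not above sg5 replicate 1. NDC80 had 44.4 and 49.4 CPM (LacZ), 45.3 and 48.9 CPM (sg1), and 47.5 and 51.8 CPM (sg5), and its groups overlapped. CENPE, a kinesin motor at kinetochores, and CENPA had fold changes of at most 0.13.

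The spindle group held the widest differences. TUBB4B, a beta-tubulin (chr9:137241213-137243707, GRCh38), had 289.6 and 265 CPM in LacZ, 530.4 (replicate 1) and 251 (replicate 2) in sg1, and 259.7 (replicate 1) and 525 (replicate 2) in sg5. Replicates of one guide differed by 2.11-fold in sg1 and 2.02-fold in sg5, and sg1 replicate 2 and sg5 replicate 1 were below both controls. The fitted log2 fold changes of TUBB4B were 0.50 ± 0.47 (adjusted p = 0.993) and 0.50 ± 0.47 (adjusted p = 0.796), the largest of any member in both comparisons and within about 1 SE of 0. CKAP2, which stabilises spindle microtubules, had 125 and 120.4 CPM in LacZ, 146 (replicate 1) and 141 (replicate 2) in sg1, and 139 (replicate 1) and 164 (replicate 2) in sg5. All 4 ARID1A-guide samples were above both controls, with fold changes of 0.22 ± 0.12 (adjusted p = 0.993) and 0.30 ± 0.12 (adjusted p = 0.663). NUSAP1, which bundles microtubules near chromatin, had 110.3 and 106 CPM (LacZ), 159 and 116 CPM (sg1), and 121 and 175 CPM (sg5), and in sg5 its fold change was 0.45 ± 0.20 (adjusted p = 0.673). TACC3, a clathrin partner on spindle fibres, had 284 and 316 CPM (LacZ), 362 and 293 CPM (sg1), and 257 and 396 CPM (sg5), so that sg5 replicate 1 was the lowest sample and sg5 replicate 2 the highest.

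Further spindle members, chosen after their values were seen, departed from one another in form. KIF11, the motor that separates the poles, had 126 and 129.9 CPM (LacZ), 162 and 134 CPM (sg1), and 134 and 185 CPM (sg5), all 4 above both controls. RANGAP1, the activator of the Ran GTPase, had 237 and 262 CPM (LacZ), 344 and 229 CPM (sg1), and 233 and 362 CPM (sg5), and JPT1 had 66.4 and 63.8 CPM (LacZ), 101 and 61.7 CPM (sg1), and 66.7 and 99.02 CPM (sg5). In RANGAP1 the other replicate of each guide lay below both controls. JPT1 transcripts share a strand and an overlap with SUMO2, a more abundant gene, so their counts are uncertain. Aside from these, CKAP2L, a spindle protein of neural progenitors, had 9.47 and 10.6 CPM (LacZ), 11.6 and 5.58 CPM (sg1), and 7.27 and 13.5 CPM (sg5). Its low values in sg1 replicate 2 and sg5 replicate 1 gave gaps of 1.05 and 0.90 on the log2 scale, close to those of TUBB4B. Between 39.2% and 67.5% of its counts in a sample came from its 1 protein-coding transcript. Some members described above have the same limit. Protein-coding transcripts held 49.6% to 65.0% of the counts of CDCA3. Retained-intron transcripts held 18.6% to 25.6% of those of AURKB, 13.3% to 18.4% for TACC3 and 5.66% to 19.2% for BUB1. PSRC1, a regulator of microtubule dynamics, went the other way in sg1 replicate 1, with 16.3 and 16.5 CPM (LacZ), 12.6 and 16.9 CPM (sg1), and 14.9 and 15.5 CPM (sg5). The CHR letters of PSRC1, printed above, began at the same position as those of CCNB2 and CKS2, and its fold changes were -0.15 ± 0.17 and -0.11 ± 0.17.

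**Figure D3:**
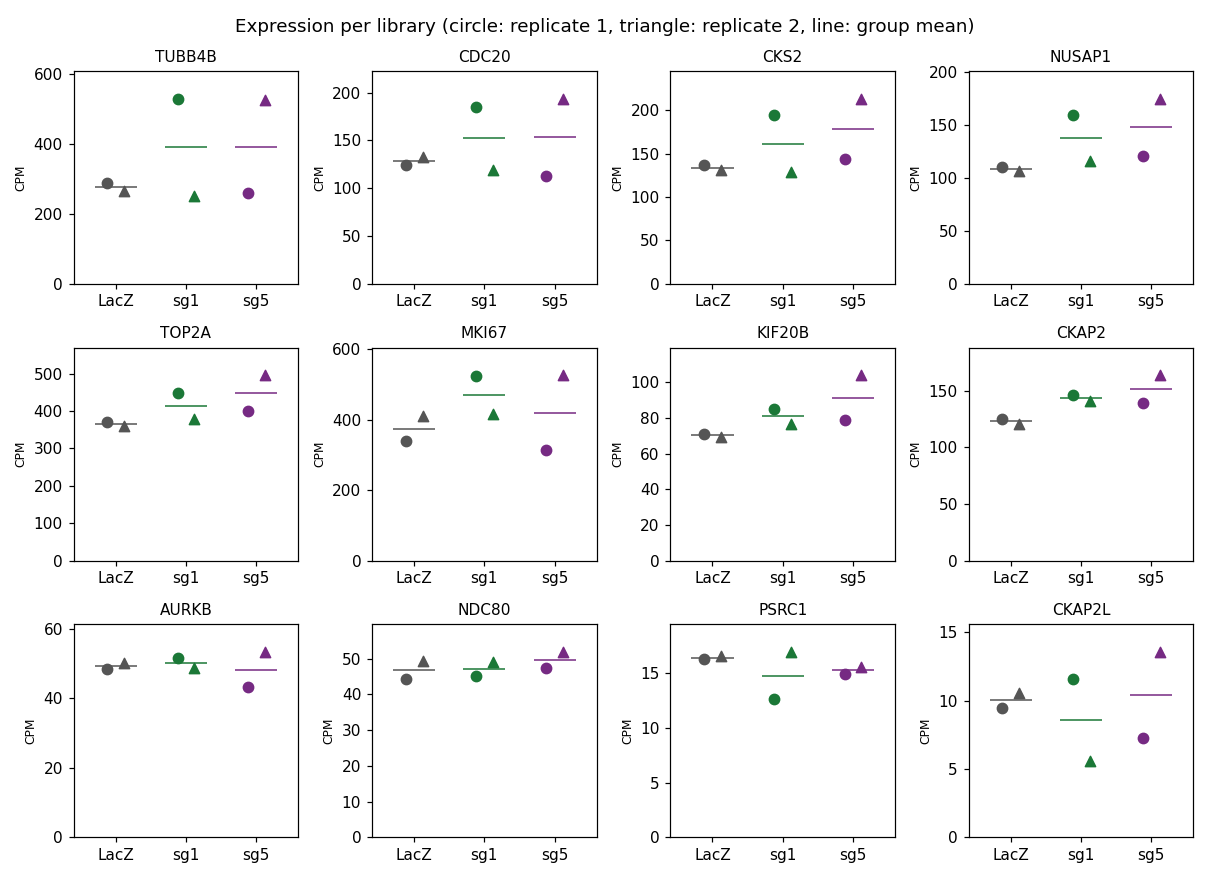
Each panel shows 1 member, with TMM-scaled CPM on a linear vertical axis from 0, groups on the horizontal axis, circles for replicate 1, triangles for replicate 2 and a line at the mean of the 2. In TUBB4B, CDC20 and CKS2 the circle of sg1 and the triangle of sg5 stand above the rest (530.4 and 525 CPM for TUBB4B), in CKAP2 both samples of both guides exceed both controls, and in PSRC1 the circle of sg1 is the lowest point.

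Cytokinesis genes had some of the highest medians by role, with 4 genes tested. ANLN (anillin), a scaffold of the contractile ring, had 109 and 103 CPM in LacZ, 142 (replicate 1) and 118 (replicate 2) in sg1, and 112 (replicate 1) and 167 (replicate 2) in sg5. All 4 samples exceeded both controls, with fold changes of 0.29 ± 0.19 in sg1 (adjusted p = 0.993) and 0.40 ± 0.19 in sg5 (adjusted p = 0.681). KIF20B had 71.3 and 69.6 CPM in LacZ, 85.3 (replicate 1) and 76.8 (replicate 2) in sg1, and 79.04 (replicate 1) and 104 (replicate 2) in sg5. Here too the ARID1A-guide samples did not overlap the controls, with 0.20 ± 0.14 (adjusted p = 0.993) and 0.38 ± 0.14 (adjusted p = 0.659). KIF23, the kinesin of the centralspindlin complex, had 58.00 and 65.3 CPM (LacZ), 65.5 and 69.98 CPM (sg1), and 52.2 and 77.3 CPM (sg5), where sg5 replicate 1 was the lowest sample and the fold changes 0.14 ± 0.18 and 0.07 ± 0.18. ECT2, the exchange factor that activates RhoA at the cell equator, had 51.2 and 57.3 CPM (LacZ), 67.1 and 61.1 CPM (sg1), and 51.6 and 78.8 CPM (sg5).

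Genes of chromosome structure and the nuclear envelope made up 11 members. TOP2A, the topoisomerase that untangles sister chromatids, had 372 and 359 CPM in LacZ, 447 (replicate 1) and 379 (replicate 2) in sg1, and 401 (replicate 1) and 496 (replicate 2) in sg5. Its 4 ARID1A-guide samples were above both controls, with fold changes of 0.18 ± 0.14 (adjusted p = 0.993) and 0.29 ± 0.14 (adjusted p = 0.685). HMGB2, a DNA-bending chromatin protein, had 338 and 351 CPM (LacZ), 406 and 356 CPM (sg1), and 365 and 421 CPM (sg5). TMPO, which encodes the lamina-associated LAP2 proteins, had 393 and 373 CPM (LacZ), 479.8 and 391 CPM (sg1), and 428 and 480.4 CPM (sg5). Their fold changes were 0.14 ± 0.13 and 0.19 ± 0.13 for HMGB2, and 0.19 ± 0.14 and 0.25 ± 0.14 for TMPO. TMPO overlaps the antisense gene TMPO-AS1, which had 759.8 counts on average. MKI67, the Ki-67 antigen that coats mitotic chromosomes, had 339 and 409 CPM (LacZ), 523 and 414 CPM (sg1), and 314 and 525 CPM (sg5), a split between replicates in each guide of 0.34 and 0.74 on the log2 scale. NCAPD2 is a subunit of condensin, and CBX5 (HP1 alpha) a heterochromatin protein that also acts outside mitosis. NCAPD2 had 252 and 223 CPM (LacZ), 248 and 230.2 CPM (sg1), and 245 and 249 CPM (sg5). CBX5 had 242 and 211 CPM (LacZ), 231 and 254 CPM (sg1), and 263 and 239 CPM (sg5). In neither gene were sg1 replicate 1 and sg5 replicate 2 the highest pair.

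By role, the median difference from the LacZ mean in sg1 replicate 1 and sg5 replicate 2 was 0.27 and 0.53 for the 15 spindle genes and 0.29 and 0.55 for the 4 of cytokinesis. It was 0.29 and 0.41 for the 6 of mitotic entry, 0.23 and 0.36 for the 4 of anaphase onset, and 0.27 and 0.30 for the 11 of chromosome structure. Lower values were those of the 4 kinases (0.15 and 0.34), the 6 centromere and kinetochore genes (0.10 and 0.28) and the 3 of the passenger complex (0.09 and 0.20). In sg1 replicate 2 the medians by role ran from -0.02 to 0.16, and in sg5 replicate 1 from -0.17 to 0.08. Every role thus had its 2 highest medians in sg1 replicate 1 and sg5 replicate 2, except that the kinetochore genes had a median of 0.13 in LacZ replicate 2.

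**Figure D4:**
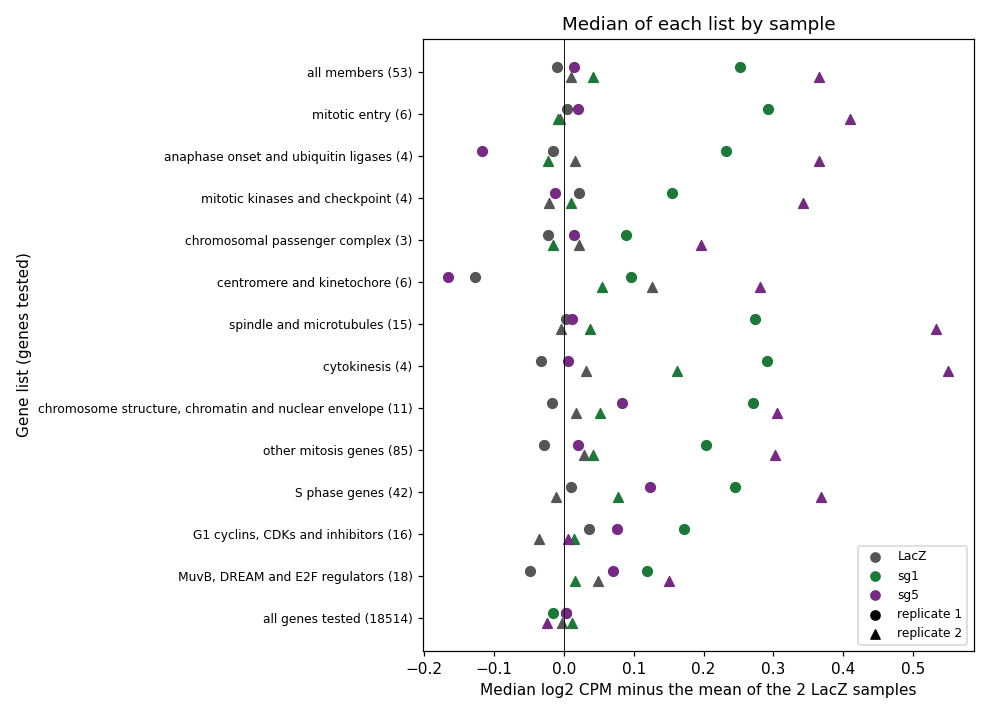
The horizontal axis gives the median log2 CPM minus the LacZ mean for each list on the vertical axis, with circles for replicate 1, triangles for replicate 2, grey for LacZ, green for sg1 and purple for sg5. For all members the circle of sg1 (0.25) and the triangle of sg5 (0.36) lie right of the other samples, and the medians of all genes tested lie between -0.02 and 0.01.

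Other cell cycle genes, listed by function with the members left out, allowed the module to be set beside its pathway. Of 86 further genes of mitosis 85 were tested. None passed the test in either comparison, 74 had a fold change above 0 in sg1 and 73 in sg5, and the medians were 0.14 and 0.16. By sample, their median was 0.20 in sg1 replicate 1, 0.04 in sg1 replicate 2, 0.02 in sg5 replicate 1 and 0.30 in sg5 replicate 2. Among them, CCNB1, the main mitotic cyclin, had 168 and 167 CPM (LacZ), 222 and 165 CPM (sg1), and 167 and 238 CPM (sg5). PLK1, a kinase of mitotic entry, had 233 and 259 CPM (LacZ), 307 and 238 CPM (sg1), and 229 and 309 CPM (sg5). FOXM1, which encodes an activator of these genes, was in the list of 18 MuvB, DREAM and E2F regulators and had 119 and 130.3 CPM (LacZ), 155 and 133 CPM (sg1), and 125 and 175 CPM (sg5), with fold changes of 0.21 ± 0.17 and 0.26 ± 0.17. MYBL2, which encodes B-MYB, had 318 and 380.2 CPM (LacZ), 398 and 325 CPM (sg1), and 306 and 384 CPM (sg5), and its groups overlapped. None of the 18 regulators passed the test, and by sample their median was 0.12 in sg1 replicate 1, 0.02 in sg1 replicate 2, 0.07 in sg5 replicate 1 and 0.15 in sg5 replicate 2.

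Genes of S phase, in which DNA is copied before mitosis, gave medians close to those of the members in sg1 replicate 1 and sg5 replicate 2. Theirs were higher than the members' in the other replicate of each guide. Of 43 such genes 42 were tested and 0 passed, and their median was 0.25 in sg1 replicate 1, 0.08 in sg1 replicate 2, 0.12 in sg5 replicate 1 and 0.37 in sg5 replicate 2. A fold change above 0 was found for 38 in sg1 and 41 in sg5 (50.3% and 48.6% of all genes). In sg5 replicate 1, 33 were above both LacZ samples, against 23 of 53 members (36.7% of all genes). At an unadjusted edgeR p under 0.05, 9 were higher in sg5 (2.95% of all genes), against 2 members. The 16 tested of 18 G1 cyclins, CDKs and inhibitors gave medians of 0.17 in sg1 replicate 1, 0.01 in sg1 replicate 2, 0.08 in sg5 replicate 1 and 0.01 in sg5 replicate 2, and none passed. In sg5 replicate 2 the median of the mitosis and S phase lists was thus above that of the G1 list, a contrast that was not tested.

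The gap between replicates had a similar order of genes in both guides. The median of sg1 replicate 1 minus replicate 2 was 0.22 on the log2 scale, from -0.42 (PSRC1) to 1.08 (TUBB4B). That of sg5 replicate 2 minus replicate 1 was 0.39, from -0.14 (CBX5) to 1.02 (TUBB4B). For LacZ replicate 1 minus replicate 2 it was -0.02, from -0.29 (CENPF) to 0.35 (PIMREG). Replicate 1 of sg1 was above replicate 2 in 44 of 53 members (47.6% of all genes), replicate 2 of sg5 was above replicate 1 in 51 (48.6%), and replicate 1 of LacZ was above replicate 2 in 24 (51.0%). Across the 53 members the sg1 and sg5 gaps, which share no sample, correlated with r = 0.64 (Pearson) and rho = 0.57 (Spearman). Without TUBB4B r was 0.58. With the LacZ gap, replicate 1 minus replicate 2, the sg5 gap correlated at r = -0.43 (-0.53 without TUBB4B) and the sg1 gap at r = 0.01. Over the 85 other mitosis genes r was 0.61, and over all 18514 genes 0.21, or 0.38 when the 13133 averaging 50 counts or more were taken. The order of subtraction in each guide followed the division seen in these same samples, so the sign of r and the direction of the counts above reflect that choice. With replicate 1 minus replicate 2 in both guides, r changes sign, to -0.21 over all genes. These are correlations across genes, which are not independent replicates, and are given as a description.

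**Figure D5:**
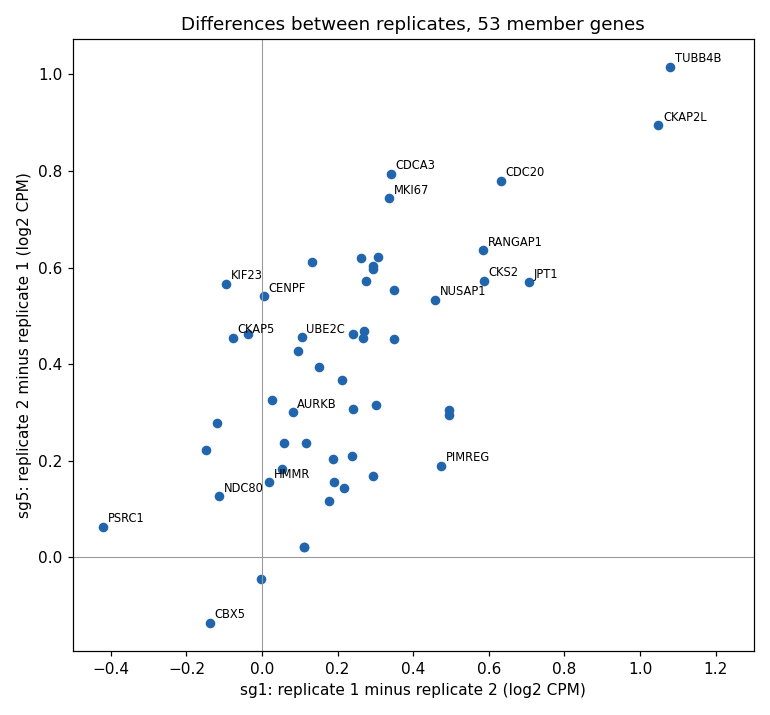
Each point is 1 of 53 members, with sg1 replicate 1 minus replicate 2 on the horizontal axis and sg5 replicate 2 minus replicate 1 on the vertical axis, both in log2 CPM. TUBB4B (1.08 and 1.02) and CKAP2L (1.05 and 0.90) lie at the upper right, PSRC1 is farthest left, and 51 of the 53 points lie above 0 on the vertical axis.

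Depth followed the same division of libraries, while the shares of RNA classes followed it less closely or not at all. Replicate 1 of sg1 and replicate 2 of sg5 had the largest totals, 54490092 and 54843745 estimated counts, against 46131178 and 48541973 in the other replicate of each guide and 53712098 and 52202084 in LacZ. Retained-intron transcripts held 3.29% and 3.26% of the members' counts in sg1 replicate 1 and sg5 replicate 2, 4.002% and 3.36% in sg1 replicate 2 and sg5 replicate 1, and 3.87% and 3.94% in LacZ. Mitochondrial transcripts held 4.45% and 5.72% of all matched counts in sg1 replicate 1 and sg5 replicate 2, 6.22% and 4.67% in the other replicates, and 5.33% and 5.92% in LacZ. The part of depth and RNA class in the differences between samples was not tested.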

How the data were processed

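RNA-seq was carried out on 6 libraries of NB4 cells, 2 in each of 3 groups, grouped by the sample titles. The deposited files hold, for each of 196354 transcripts, the estimated count and the TPM (a length-corrected relative abundance) that the authors obtained with kallisto. Per the submitters' processing notes the build was hg19 and DESeq2 was also used. The study's methods give a kallisto version only for reads set against the mouse transcriptome. For these human libraries neither version nor strand setting is given in the sources used here. Counts of reads shared by transcripts are split by a model, so paralogs and overlapping genes are uncertain. Deposited estimated counts and TPM were summed per gene by transcript ID through GENCODE release 29, which matched 181857 transcripts (95.4% to 95.5% of counts), and summed counts were rounded. Gene positions are those of GENCODE 29 on GRCh38, and no position came from the deposited files.

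Genes passing filterByExpr (minimum count 10) were fitted in R 4.3.3 with edgeR 4.0.16 (TMM, robust quasi-likelihood fit over all 6 samples, group as the only term), at a false discovery rate of 0.1. CPM are TMM-scaled, and log2 CPM used a prior count of 2. Values after ± are standard errors derived from the edgeR test, as the absolute log2 fold change divided by the square root of its F statistic. The common biological coefficient of variation was 16.6%. DESeq2 1.42.0, limma 3.58.1 on log2(TPM + 1), RLE factors, other filters, a transcript length offset, a replicate block and left-out libraries were the alternatives. Scripts were tested on 3 simulations of sg1 against LacZ with 200 changed genes. Of genes changed by 1 on the log2 scale, edgeR recovered 70.7% and DESeq2 79.3%, and of those changed by 2, 97.3% and 97.7%. Unchanged genes made up 15.9% of what edgeR called and 24.6% for DESeq2, so both exceeded the rate of 0.1 used here. Recovery was not measured for changes as small as those of the members, the largest being 0.50 (TUBB4B). Replicate numbers were not used to pair samples in the main fit, and no label states a pairing. Correlations of deviations from the group means were 0.07 (LacZ with sg1), 0.01 (LacZ with sg5) and -0.21 (sg1 with sg5). They cannot show whether samples of the same number were handled together. Intervals and tests cover these libraries only.

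The members and all gene lists were chosen with earlier results of these data known. Members named by rule were, in each of 8 roles, the 2 with the highest mean TPM and the 1 with the smallest p in both guides joined against LacZ, 20 in all after overlaps, and other members were named after their values were seen. The 20 were ANLN, AURKA, AURKB, BIRC5, BUB1, CDC20, CKAP2, CKS1B, CKS2, G2E3, HJURP, HMGB2, KIF20B, KIF23, NUF2, PIMREG, TACC3, TMPO, TOP2A and TUBB4B. A planned description of protein sequences was not run. Lists of 6 promyelocyte markers (5 tested) and 16 markers of other cells (7 tested) were also used.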

Additional observations from a re-analysis of the deposited data

Results flagged for a closer look

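Among the 53 members tested for a sample far from the others of the 4 with an ARID1A guide, 1 stood out, HMMR, which encodes a spindle protein that binds hyaluronan. Its value in sg5 replicate 2 lay at a gap of 0.887 of the whole range of the 4 samples, above Dixon's critical value of 0.829. Chance alone gives such a gap in about 1 of 20 groups, so 1 flagged among 53 is not above that rate. HMMR had 54.7 and 50.9 CPM in the LacZ samples, 54.3 and 53.6 in sg1, 53.8 in sg5 replicate 1 and 59.9 in sg5 replicate 2.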

How the results depend on the processing

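No alternative setting with all 6 libraries called a member, except the fit without a low-count filter, which called 1 in sg1 (TUBB4B), 2 in sg5 (NUSAP1 and TUBB4B) and 2 in both guides joined. The cause was not tested. With libraries left out the number called ranged from 0 to 1 in sg1 and from 0 to 1 in both guides joined, the 1 being CKAP2L without both sg1 replicate 1 and sg5 replicate 2, a fit with 1 residual degree of freedom that called 424 and 809 of 19255 genes. A group left with 1 library was assumed to vary like the other groups. With libraries left out, the median log2 fold change of the members ranged from 0.033 to 0.26 in sg1, from 0.0060 (without sg5 replicate 2) to 0.38 in sg5, from 0.022 to 0.26 in both guides joined (0.079 without sg5 replicate 2), and from -0.25 to 0.16 for sg1 against sg5. It was 0.013 in sg5 without both sg1 replicate 1 and sg5 replicate 2. The replicate block gave medians of 0.14, 0.20, 0.17 and -0.07 for the 4 comparisons, called 0 members and changed no call of a member. Over all genes it called 1, 1, 3 and 0, against 7, 18, 31 and 1 without it. The crossed pairing of replicate numbers, chosen after seeing the data, called 0 members and 59, 157, 194 and 2 genes. Without a low-count filter 345, 632, 701 and 86 genes were called, and with limma 3, 4, 4 and 0.

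Over all settings that left out libraries, 41 values of 40 named results changed sign. With a library left out, the log2 fold changes spanned 0 in sg1 for AURKA (-0.035 to 0.25), AURKB (-0.023 to 0.075), BIRC5 (-0.041 to 0.47), CDC20 (-0.11 to 0.53), CKS1B (-0.024 to 0.17), CKS2 (-0.056 to 0.55), G2E3 (-0.049 to 0.061), HJURP (-0.089 to 0.17), TACC3 (-0.042 to 0.28) and TUBB4B (-0.15 to 0.95). In sg5 they spanned 0 for AURKB (-0.19 to 0.13), BUB1 (-0.010 to 0.62), CDC20 (-0.20 to 0.61), G2E3 (-0.053 to 0.25), HJURP (-0.18 to 0.28), KIF23 (-0.25 to 0.34), TACC3 (-0.23 to 0.42) and TUBB4B (-0.10 to 0.94). With all libraries, 14 values changed sign. G2E3 in sg1 was -0.0020 without a filter, -0.011 over genes averaging 50 counts or more, -0.0013 with the replicate block, -0.0027 with only the groups compared, -0.043 with the length offset, -0.041 with that offset and the replicate block, and -0.075 in limma. KIF23 in sg5 was -0.019 with the length offset, -0.044 with it and the replicate block, and -0.093 in limma. AURKB in sg5 was 0.018 and 0.010 in the same length fits, and HJURP in limma -0.013 in sg1 and -0.031 in sg5. The cause was not tested. With 2 libraries in a group, the error of each member's fold change came from the spread within all 3 groups, fitted together and moderated over genes. A wide gap between replicates of one guide thus also widened the error of the other guide. No member's change passed the threshold against that spread in the fit with the low-count filter and all 6 libraries.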
